A study of Homo sapiens with 4 samples.

Results

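Of the 426 genes that the authors called as changed between OGT-knockdown and wild-type MEG-01 cells, 5 are described here: TUBB1, TUBB2B, TMSB4X, CORO6 and F2R. They were taken by gene name and chosen by the fold changes and adjusted p-values of that same comparison, so their values are given as a description and not as a test. MEG-01 is a human megakaryoblastic leukaemia cell line that sheds platelet-like particles. RNA was sequenced from 2 wild-type (WT) libraries and from 2 libraries titled CR_OGT, whose genotype is labelled as OGT depletion and which the design text describes as a CRISPR/Cas9 knockdown; these are called knockdown libraries here. Whether the edited cells were 1 clone or a pool, and whether replicates were separate cultures, is not stated in the labels. The table heads the knockdown columns OGTi, a name the labels do not explain, and these columns were matched to the CR_OGT titles by number. OGT itself was at 60.5% of WT, with 16012 and 19190 normalized counts (WT) and 9124 and 12185 (knockdown).

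Megakaryocytes build platelets by pushing out long microtubule-filled extensions, the proplatelets, and each platelet keeps a coiled ring of microtubules under its membrane. Microtubules are polymers of alpha- and beta-tubulin pairs, and TUBB1 encodes the beta-tubulin typical of megakaryocytes and platelets, while TUBB2B encodes a beta-tubulin best known from developing neurons. Thymosin beta-4, the product of TMSB4X, binds actin monomers and keeps them from polymerizing, and it is abundant in platelets. CORO6 encodes a coronin, one of a family of actin-filament-binding proteins. F2R encodes PAR-1, a G-protein-coupled receptor that thrombin switches on by cutting its outer end. OGT attaches single N-acetylglucosamine sugars to nuclear and cytosolic proteins.

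Beta-tubulins are classed by the end of the coding sequence, which encodes the acidic tail, so the ends of TUBB1, TUBB2B and its near copy TUBB2A are shown. Sequences come from GENCODE v29 transcripts (GRCh38) and run 5′ to 3′ up to the last base before the stop codon. Capitals mark bases that differ from TUBB2B, or have no partner in it, in a global alignment of the coding sequences.
TUBB2B: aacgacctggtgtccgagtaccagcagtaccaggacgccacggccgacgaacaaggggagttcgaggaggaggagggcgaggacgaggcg
TUBB2A: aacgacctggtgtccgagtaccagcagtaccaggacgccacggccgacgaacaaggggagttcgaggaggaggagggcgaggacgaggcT
TUBB1: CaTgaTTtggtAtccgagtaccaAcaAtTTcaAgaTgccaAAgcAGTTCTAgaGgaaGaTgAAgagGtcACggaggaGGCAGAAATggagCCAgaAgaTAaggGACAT
The TUBB1 end was longer (108 bases against 90) and differed from TUBB2B at 48 of its bases, while TUBB2A differed at 1. The 48 include the extra bases of TUBB1, which have no partner in TUBB2B, and are thus not all substitutions. Over the whole coding sequence TUBB1 and TUBB2B were 76.1% identical, and TUBB2B and TUBB2A 98.2%. No 100-base window of the TUBB1 transcript occurred on the same strand in a transcript of another gene, so reads of that length from TUBB1 and TUBB2B can be told apart. Of all 100-base windows of the TUBB2B transcript, 46.2% occurred unchanged in the transcript of another gene, and 42.4% in that of TUBB2A. The labels do not say how the authors treated such reads, so the split of reads between the 2 genes is uncertain. TUBB2A is not in the table and is not analysed here.

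TUBB1 (ENSG00000101162; chromosome 20, 57594309 to 57601709, hg19, plus strand) was higher in the knockdown, in each library against each. Raw counts of replicates 1 and 2 were 120 and 132 for WT cells and 279 and 351 for knockdown cells, and values are given in that replicate order throughout. Divided by each library's size factor, they came to 126 and 136 normalized counts for WT and 264 and 336 for the knockdown. The WT libraries lay close together and the knockdown libraries lay well above them, with replicate 2 the higher. The lowest knockdown library was still 1.94 times the highest WT library, and the mean was 2.29 times that of WT (131 ± 6.78 against 300.4 ± 51.0, SD, n = 2). The log2 fold change was 1.19 ± 0.18 (SE). Counting error alone at 120 reads is 9.13%.

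The TUBB1 exons overlap another gene of the table. ATP5E, which encodes the epsilon subunit of mitochondrial ATP synthase, lies on the opposite strand (chromosome 20, 57600522 to 57607437, hg19; ATP5F1E in GENCODE v29), and 1188 of the 3496 exonic bases of TUBB1 (34.0%) are also exonic in ATP5E in GENCODE v29. The labels do not say whether the authors counted by strand, and without strand, reads from the overlap cannot be assigned to either gene. In WT, ATP5E had 10.3 times the normalized counts of TUBB1, which are not divided by gene length. ATP5E was also listed as higher, with 1451 and 1245 normalized counts in WT and 2383 and 1660 in the knockdown, 150.0% of WT. The 2 genes were not in a fixed proportion. TUBB1 stood at 8.71% and 10.9% of ATP5E in the WT libraries, and at 11.1% and 20.3% in the knockdown libraries. Among knockdown libraries ATP5E was higher in replicate 1 and TUBB1 in replicate 2. The part of ATP5E reads in the TUBB1 count was not tested.

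TUBB2B (ENSG00000137285; chromosome 6, 3224495 to 3231964, hg19, minus strand) was lower in both knockdown libraries. Its raw counts were 128 and 200 in WT and 98 and 74 in the knockdown, or 135 and 206 against 92.8 and 70.9 normalized counts. The groups did not overlap, but the WT libraries differed from each other by 1.53 times, more than the 1.45 times that separated the lower WT library from the higher knockdown one. The mean in the knockdown was 48.1% of WT (170.4 ± 50.3 against 81.9 ± 15.5, SD, n = 2). On the log2 scale the fold change was -1.06 ± 0.23 (SE). Of the exonic bases of TUBB2B, 174 (7.93%) are also exonic in PSMG4 on the opposite strand. Only 8 of the 426 genes had a larger difference between the WT replicates. Without WT replicate 2 the log2 fold change was -0.72, and without WT replicate 1 it was -1.33.

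**Figure D1:**
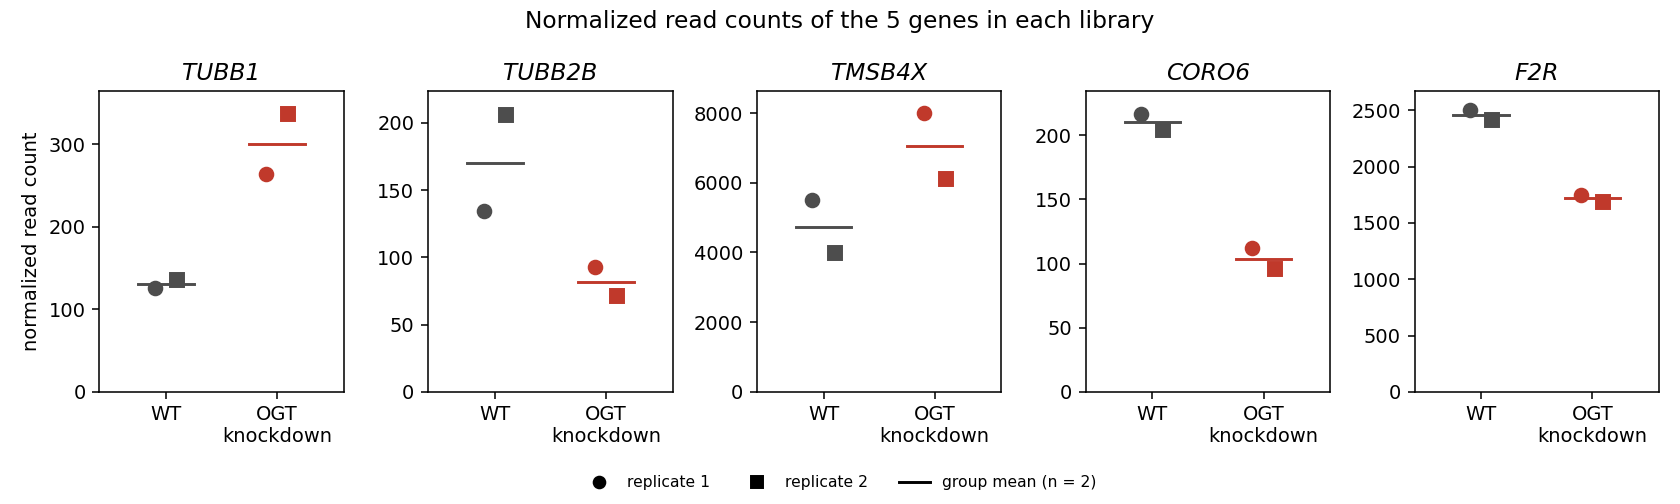
Normalized read counts (linear axes from 0) of the 5 genes in each library, with circles for replicate 1, squares for replicate 2 and lines for group means (n = 2). TUBB1 and TMSB4X sit higher in both knockdown libraries and TUBB2B, CORO6 and F2R lower, with the narrowest gap for TMSB4X (1.11 times).

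TUBB1 was chosen as higher and TUBB2B as lower in this comparison, so the direction of the shift in their balance was fixed by that choice. The more abundant of the 2 changed between groups, while their sum did not move beyond its spread (n = 2). The ATP5E overlap of TUBB1 and the windows that TUBB2B shares with other genes, given above, limit these shares too. Deposited FPKM values, which divide by gene length, allow the genes to be compared. TUBB1 was at 1.88 and 2.14 FPKM in WT and at 4.01 and 5.33 in the knockdown. TUBB2B was at 3.47 and 5.61 FPKM in WT and at 2.44 and 1.94 in the knockdown. In both WT libraries TUBB2B was the more abundant, by 1.85 and 2.62 times, and in both knockdown libraries TUBB1 was, by 1.65 and 2.74 times. As a share of the summed FPKM of these 2 genes, TUBB1 made up 35.1% and 27.6% in WT and 62.2% and 73.3% in the knockdown. The group means were 31.4% ± 5.32 and 67.7% ± 7.83 (SD, n = 2). The summed FPKM was 6.55 ± 1.70 in WT and 6.86 ± 0.58 in the knockdown (SD, n = 2). Other beta-tubulins are not in the table, so this is not a share of all beta-tubulin.

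**Figure D2:**
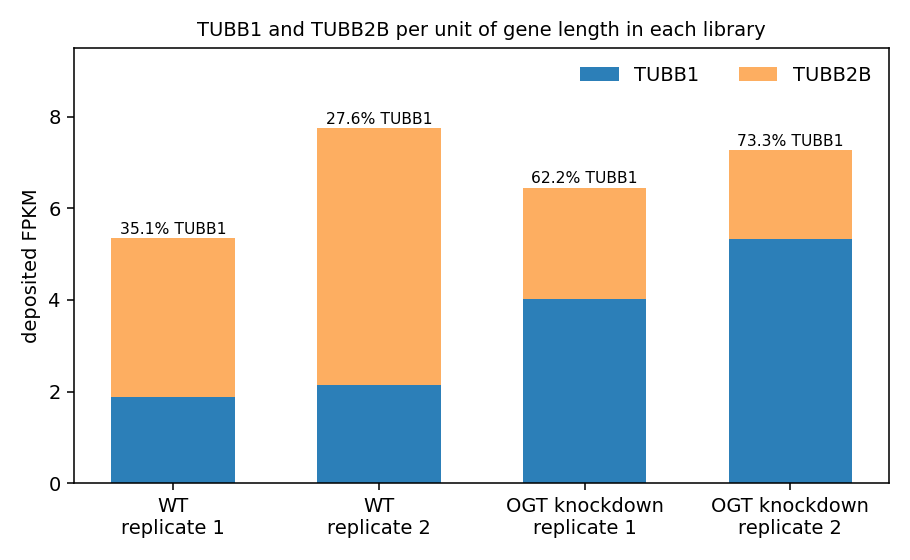
Stacked bars give the deposited FPKM of TUBB1 and TUBB2B in each of the 4 libraries, with the TUBB1 share of their sum printed above each bar. TUBB1 is the smaller part in both WT libraries (35.1% and 27.6%) and the larger part in both knockdown libraries (62.2% and 73.3%).

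TMSB4X (ENSG00000205542; chromosome X, 12993227 to 12995346, hg19, plus strand) was by far the most abundant of the 5 and had the second-smallest fold change, ahead of F2R. Its normalized counts were 5501 and 3986 in WT and 8008 and 6093 in the knockdown. Replicate 1 was the higher library in both groups, by 1.38 times in WT and 1.31 times in the knockdown. The lower knockdown library (replicate 2) exceeded the higher WT library (replicate 1) by 1.11 times only, so this gap crosses replicate numbers. The mean was 1.49 times that of WT (4743 ± 1071 against 7050 ± 1354, SD, n = 2). On the log2 scale the fold change was 0.57 ± 0.17 (SE). With a block for replicate number in the fit it was 0.58 ± 0.055 (SE), though no label says what the numbers stand for. Counting error was 1.61% or less, far below the difference between replicates. TMSB4X is short (1702 b, against a median of 3056 b for the 248 genes listed as higher), and shorter genes of the table tended to be higher in replicate 1 of both groups (Spearman rho across genes of length against the log2 difference, -0.40 in WT and -0.55 in the knockdown; genes are not independent replicates). The part of length in the TMSB4X values was not tested. Its coding sequence was 92.4% identical to that of TMSB4Y, but the transcripts shared no 100-base window, and 1.43% of such windows of TMSB4X occurred in its processed pseudogenes. TMSB4X lies outside the pseudoautosomal region, on a chromosome where 25 of 29 listed genes were higher (16 of 20 outside that region), against 58.2% of the whole table.

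CORO6 (ENSG00000167549; chromosome 17, 27941774 to 27949925, hg19, minus strand) was at a similar number of reads to TUBB2B but with closer replicates. Normalized counts were 217 and 204 in WT and 112 and 95.8 in the knockdown. The lower WT library was 1.82 times the higher knockdown library, and the mean in the knockdown was 49.3% of WT. The log2 fold change was -1.02 ± 0.17 (SE). The lowest raw count was 100, where counting error alone is 10.0%. No 100-base window of its 4069 b transcript, annotated as a retained intron, occurred in a transcript of another gene. No near-identical copy of that transcript was thus found at that length, and its 6 protein-coding transcripts were not searched separately. It was the only coronin of 7 in the table (14.3%, against 3.24% of all tested genes). CORO6 was chosen from that table, so this share is no result, and whether the others were expressed is not known here.

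F2R (ENSG00000181104; chromosome 5, 76011868 to 76031606, hg19, plus strand) had the closest replicates and the smallest change of the 5. Normalized counts were 2500 and 2410 in WT and 1744 and 1690 in the knockdown. Replicates differed by 1.04 times in WT and 1.03 times in the knockdown, while the lower WT library was 1.38 times the higher knockdown one. The mean in the knockdown was 69.9% of WT (2455 ± 63.5 against 1717 ± 38.3, SD, n = 2). On the log2 scale the fold change was -0.52 ± 0.11 (SE). Of the 4 protease-activated receptors (F2R, F2RL1, F2RL2 and F2RL3), it was the only one in the table (25%, against 3.24% of all tested genes). F2R was chosen from that table, so this share is no result, and whether the others were expressed is not known here. The nearest listed gene was IQGAP2, which encodes a scaffold protein that binds actin, 7.91 kb away on the same strand. IQGAP2 was also lower in both knockdown libraries, at 1871 and 1639 normalized counts in WT and 1044 and 1097 in the knockdown, 61.0% of WT.

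**Figure D3:**
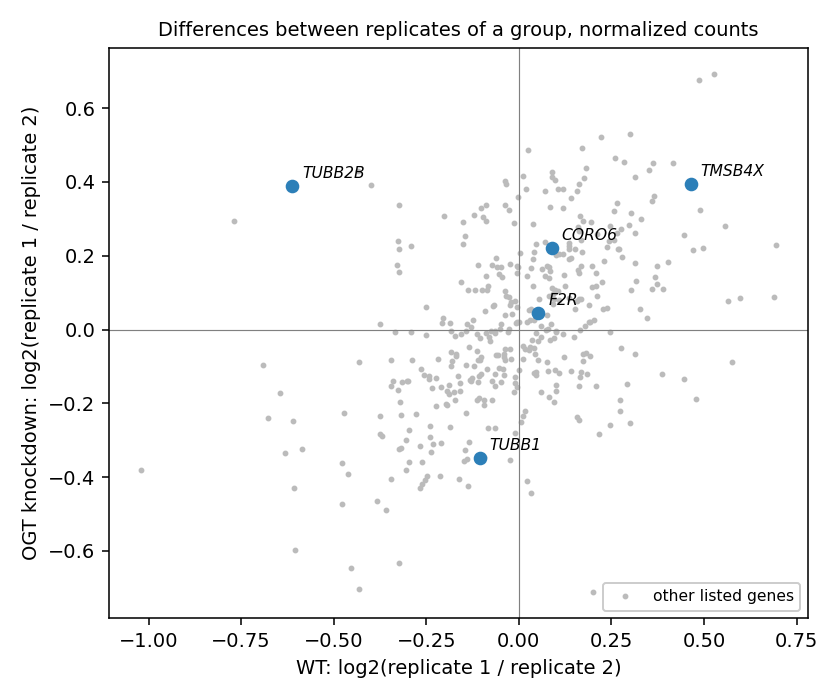
Each point is a gene of the table, with the log2 ratio of replicate 1 to replicate 2 (normalized counts) in WT on the horizontal axis and in knockdown cells on the vertical axis, and the 5 genes in blue. TMSB4X leans to replicate 1 in both groups (0.46 and 0.39), TUBB2B leans to opposite replicates (-0.61 and 0.39), and F2R lies near 0 on both axes (0.05 and 0.05).

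On the per-length scale the order of the 5 genes in WT was TMSB4X (168 and 129 FPKM), F2R (34.0 and 34.7), TUBB2B (3.47 and 5.61), CORO6 (2.77 and 2.76) and TUBB1 (1.88 and 2.14). No neighbours in that order overlapped between WT libraries. After depletion TUBB1 (4.01 and 5.33 FPKM) stood above TUBB2B (2.44 and 1.94) and CORO6 (1.46 and 1.30), with TMSB4X (250 and 198) and F2R (24.2 and 24.5) again highest, and again without overlap. TMSB4X ranked 21 of 426 by mean FPKM in WT and F2R ranked 100, while TUBB2B, CORO6 and TUBB1 ranked 298, 334 and 365. By size of fold change TUBB1 ranked 66 and TMSB4X 208 of the 248 genes listed as higher, whose median was 1.87 times WT. TUBB2B ranked 10, CORO6 12 and F2R 143 of the 178 listed as lower, whose median was 64.6% of WT. FPKM levels depend on the length that the authors divided by. The deposited length equals the longest GENCODE v29 transcript for 308 of 418 genes matched by identifier, and for all 5 described here it equals an annotated transcript. For CORO6 that transcript, of 4069 b, is annotated as a retained intron, and its longest protein-coding transcript has 2603 b. With the median length of protein-coding transcripts in its place, an alternative added after the data were seen, the WT level of TMSB4X became 362 FPKM, that of F2R 61.6 and that of CORO6 5.98. CORO6 then stood above TUBB2B (4.54 FPKM). F2R has only 2 protein-coding transcripts, of 442 and 3821 b, so its median of 2131.5 b is the length of neither. The shorter one is below the 1275 b of the longest F2R coding sequence, so the 61.6 FPKM is a poor guide to its level. Fold changes do not depend on the length used.

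The upstream sequences of 4 of the 5 genes were in the RefSeq promoter windows (GRCh38.p14), and 3 are shown because they lie mostly or wholly before annotated exons. Each is 5′ to 3′ on the strand of its gene, up to 250 bases before the RefSeq start and cut where a GENCODE v29 exon begins. Capitals mark matches, on either strand, to the motifs named after them.
TMSB4X (chrX:12974860-12975107, plus strand): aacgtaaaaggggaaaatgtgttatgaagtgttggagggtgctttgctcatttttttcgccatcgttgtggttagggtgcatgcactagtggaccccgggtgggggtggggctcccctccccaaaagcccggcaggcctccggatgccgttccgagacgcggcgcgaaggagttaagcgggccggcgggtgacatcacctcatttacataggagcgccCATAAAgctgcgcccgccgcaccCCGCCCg
TUBB2B (chr6:3227736-3227903, minus strand): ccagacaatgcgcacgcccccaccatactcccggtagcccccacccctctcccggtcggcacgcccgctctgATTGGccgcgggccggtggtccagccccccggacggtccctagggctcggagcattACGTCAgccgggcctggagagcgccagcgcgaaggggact
CORO6 (chr17:29622913-29623162, minus strand): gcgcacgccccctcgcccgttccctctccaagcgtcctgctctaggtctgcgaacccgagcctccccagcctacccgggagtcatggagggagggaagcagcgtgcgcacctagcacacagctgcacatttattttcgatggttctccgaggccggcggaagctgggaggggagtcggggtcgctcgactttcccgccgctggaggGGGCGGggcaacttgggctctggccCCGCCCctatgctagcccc
Over the full 250 bases, a GC box (GGGCGG) matched in the window of each of the 4 genes, and it matched in 42.6% of all 35116 windows of that length. CATAAA, a variant of the TATA box, began 32 bases before the start in TMSB4X and 31 bases before it in TUBB2B (past the stretch shown), and it matched in 9.64% of windows. TMSB4X was listed as higher and TUBB2B as lower. TUBB2B alone also held the half-site of a cAMP response element (TGACGT, 7.10% of windows) and a CCAAT box (CCAAT, 32.0%). The GATA motif was searched as AGATAA, which with its other form matched in 14.6% of windows, and as TGATAA. Neither form was found in the windows of the 4 genes. They also held no AP-1 and NF-E2 core (TGANTCA, in 6.57% of windows) and no ETS motif (CCGGAA, in 14.5%). An E-box (CACGTG, in 6.34% of windows) and the standard TATA box (TATAAA, in 10.7%) were likewise not found. These are letter matches and not measured sites. Of the 250 bases searched for TUBB1, 175 lie in annotated GENCODE v29 exons, so most of the sequence before those exons was not searched. A second CORO6 window, also searched, lies wholly in such exons.

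The values that chose these genes are those of the authors' deposited table, which calls 426 of about 13154 tested genes (3.24%). It holds 248 genes as higher (1.89% of those tested), TUBB1 and TMSB4X among them, and 178 as lower (1.35%), with TUBB2B, CORO6 and F2R among them. There the adjusted p-value was 0.000394 for TUBB1, 0.0115 for F2R, 0.0122 for CORO6, 0.0460 for TUBB2B and 0.0479 for TMSB4X. TUBB2B and TMSB4X were thus close to the end of the table, whose highest adjusted p-value was 0.0497, and genes past it are not analysed here. The libraries of the 2 groups did not overlap for any of the 5 genes, as is so for 100% of the listed genes. A refit in edgeR on the same libraries, which cannot add support, called 4 of the 5 genes and 350 of the 426 listed ones (82.2%), all of which the authors had called, and not TMSB4X (adjusted p = 0.190, edgeR's quasi-likelihood test). In edgeR 0 of the 5 were called without WT replicate 1, where 86 of the 426 were (20.2%), and 0 without WT replicate 2, where 37 were (8.69%). Of the 5, 5 and 4 then had an unadjusted p under 0.05. F2R also lost its edgeR call without knockdown replicate 1 (adjusted p = 0.0835), where 67.1% of the 426 were called, and without knockdown replicate 2 (0.149), where 81.0% were and TMSB4X gained a call (1.02e-05). DESeq2 on the 4 libraries called the same 4 genes as edgeR and 421 of the 426 (98.8%), so that TMSB4X was among the 5 listed genes it did not call.

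**Figure D4:**
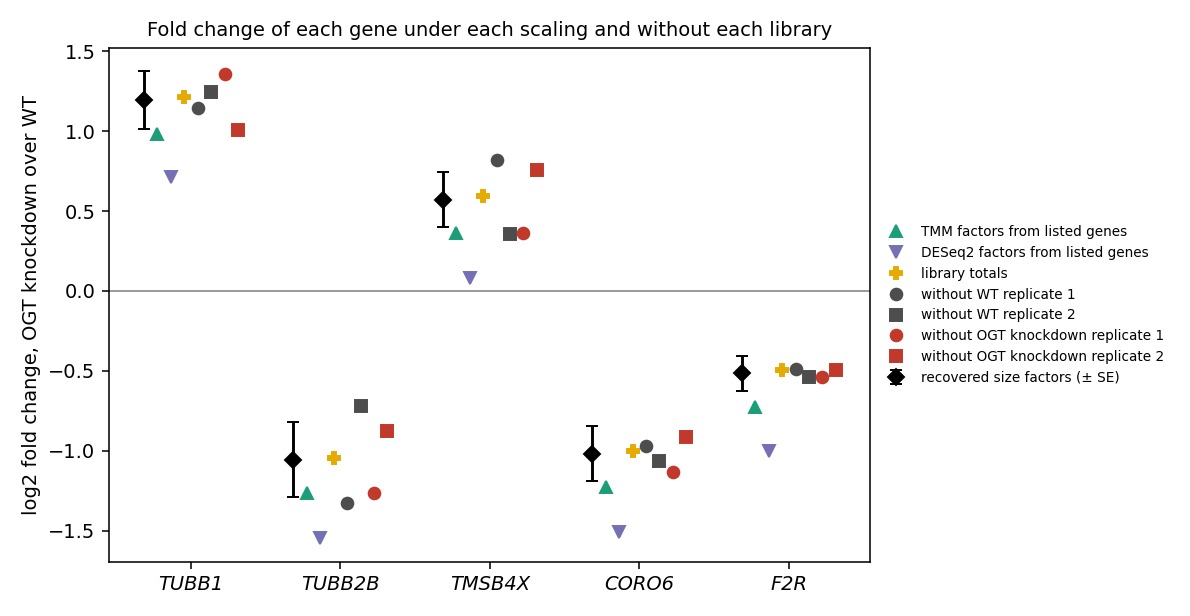
Log2 fold changes of knockdown over WT libraries for the 5 genes, with recovered size factors (diamonds, ± SE), with 3 other scalings and without each library in turn. TUBB1 and TMSB4X stay above 0 and the other genes below it, and TMSB4X comes nearest to 0 (0.080 when DESeq2 size factors are taken from the listed genes).

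Few other genes of the lists drawn up for these pathways were in the table. Of 151 cytoskeleton genes in lists of tubulins, tubulin folding and microtubule-binding proteins, thymosins and monomer-binding or severing proteins, coronins and actomyosin, 5 were listed (3.31%), 2 higher and 3 lower. That share is close to the 3.24% of all tested genes and is not a result about these lists, which contain the genes described. Beside TUBB1, TUBB2B, TMSB4X and CORO6 the lists gave FMNL1, a formin that drives actin filament growth in blood cells, with 2295 and 2251 normalized counts in WT and 1669 and 1608 in the knockdown, 72.1% of WT. These lists do not hold every cytoskeleton gene, IQGAP2 among those left out, and 9 more that were found in the table by their descriptions are given in the closing observations. No alpha-tubulin and none of 44 folding, modifying or microtubule-binding genes was listed. Of 26 receptors for platelet agonists and adhesion, F2R was the 1 listed (3.85%, near the share of all tested genes). Of 40 genes that act downstream of thrombin receptors, PRKCB, which encodes protein kinase C beta, was listed (2.5%, also near that share). It had 5655 and 5911 normalized counts in WT and 7740 and 9305 in the knockdown, 1.47 times WT. F2R was thus lower and PRKCB higher in both knockdown libraries. None of 18 megakaryocyte markers and none of 24 megakaryocyte transcription factors was listed, so the labelled cell type could not be checked against them.

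Markers of other blood lineages were listed beside these genes. Of 13 mast cell and basophil markers 7 were listed, 5 higher and 2 lower (53.8%, against 3.24% of all tested genes; the list was chosen with results known). The tryptase genes TPSAB1 and TPSB2, near-identical copies between which reads may be split wrongly, were at 3.86 and 3.21 times WT. TPSAB1 had 117 and 130 normalized counts in WT and 525 and 428 in the knockdown. HPGD, which encodes a prostaglandin-degrading enzyme, was at 2.41 times WT, the mast cell carboxypeptidase gene CPA3 at 2.29 times and the interleukin-33 receptor gene IL1RL1 at 1.72 times. FCER1A, a chain of the high-affinity IgE receptor, was at 60.8% of WT, with 5492 and 4418 normalized counts in WT and 3203 and 2825 in the knockdown, and MS4A3 was at 55.8%. The 7 genes had a summed level of 8727 and 7253 normalized counts in WT and 9556 and 8559 in the knockdown. These sums, which mix genes of both directions and to which FCER1A gave the most in WT, overlapped between groups. The erythroid list had 1 of 15 (6.67%; HBE1, at 1034 and 748 normalized counts in WT and 3349 and 2563 in the knockdown), the lymphoid list 1 of 11 (9.09%; GZMA, at 22.1 and 29.9 against 132 and 97.8) and the monocyte and granulocyte list 1 of 11 (9.09%; ITGAM, at 4297 and 4628 against 3141 and 3425). None of the listed markers was at 0. Fewer cells of a type and less RNA per cell cannot be told apart in such bulk libraries, and the part of these lineages in the values of the 5 genes was not tested.

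For each of the 5 genes the 2 listed genes with the nearest profile over the 4 libraries were found by Euclidean distance between centred log2 normalized counts. CORO6 was nearest to FZD6, a Wnt receptor gene (distance 0.04), and to ERAP2, an aminopeptidase gene (0.16). F2R was nearest to GCSAML and UBR3 (0.04 each), TUBB1 to HMCN1 (0.11) and MACC1 (0.15), and TMSB4X to GTF3C6 (0.10) and the ribosomal protein gene RPS12 (0.14). TUBB2B had the most distant neighbours, NTN1 (0.32) and CROCC (0.35). The nearest listed genes on the chromosome were ATP5E for TUBB1 and IQGAP2 for F2R, given above, and lay farther off for the others. MYLK4, a gene of the myosin light chain kinase family, lay 473 kb from TUBB2B and was at 54.7% of WT. AC010761.8 lay 892 kb from CORO6 and was at 61.8% of WT, and VCX lay 5181 kb from TMSB4X and was at 3.10 times WT.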

How the data were processed

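RNA-seq libraries of MEG-01 cells (2 WT, 2 knockdown) were compared. The submitters' processing notes name CASAVA 1.8, STAR 2.5, TopHat, DESeq2 and hg19 without saying what each was used for. Counter, annotation and strand setting: not given in the sources used here. Read counts were deposited raw, per the file headers. FPKM values were deposited per kilobase of a listed gene length, relative to all reads counted in a library. Deposited means of each group hold a normalized signal (counts over a size factor), from which the size factor of each library (0.950 to 1.06) was solved. The authors' deposited log2 fold changes were not used, and their p-values are quoted from their table. Those fold changes were smaller than the ones given here: 0.87 for TUBB1, -0.65 for TUBB2B, 0.48 for TMSB4X, -0.71 for CORO6 and -0.46 for F2R. By them CORO6 changed more than TUBB2B, the reverse of the order given here.

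Depth, recovered from count, length and FPKM, was 17643474 to 19883586 counted reads. Genes outside the table are not analysed here. The mean chi-square of replicates per gene was 13.5 (WT) and 25.2 (knockdown), above counting noise, and no library was merged. Nothing in the labels says that cultures were separate, so p-values cover the spread of these libraries only, and that spread may be technical. All 426 genes were refitted in edgeR 4.0.16 (R 4.3.3, glmQLFit and glmQLFTest, recovered size factors, no filter), with Benjamini-Hochberg adjustment over 13154 genes and a threshold of 0.05. Dispersion was estimated from the 426 listed genes only. The adjustment ranks every gene outside the table after the listed ones, so adjusted p-values may be too high. A call lost with a block or without a library may come partly from this. The script was tested on simulated data. SE is the log2 fold change over the root of the F statistic. DESeq2 1.42.0 was an alternative.

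The genes, lists and tests were chosen with earlier results of these data known. Named were the 5 genes, listed members of the lists, the 2 nearest profiles and the nearest listed gene of each.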

Additional observations from a re-analysis of the deposited data

How the results depend on the processing

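All 5 fold changes kept their direction under each of 55 alternatives, and 43 of these moved by less than the replicate SD. The groups overlap in no listed gene, so leaving out a library could not reverse a direction, and this tally is no support. The SD ran from 0.035 for F2R to 0.36 for TUBB2B on the log2 scale, so a gene with wider replicates passed more easily. Scaling mattered most. TMM factors from the listed genes moved the median log2 fold change of the table by -0.21, and gave 0.98 for TUBB1, -1.23 for CORO6 and -0.73 for F2R. DESeq2 size factors from those genes moved it by -0.49, and gave 0.71 for TUBB1, -1.55 for TUBB2B, 0.080 for TMSB4X, -1.51 for CORO6 and -1.003 for F2R. Both rest on genes selected for their change. On the log2(FPKM + 1) scale, which understates low genes, the difference was 0.91 for TUBB1, -0.66 for CORO6 and -0.48 for F2R. Without each library in turn the log2 fold change ran from 1.01 to 1.36 for TUBB1, from -1.33 to -0.72 for TUBB2B, from 0.36 to 0.82 for TMSB4X, from -1.13 to -0.91 for CORO6 and from -0.54 to -0.49 for F2R.

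The rise in the TUBB1 share of the summed TUBB1 and TUBB2B level, 36.4 percentage points, ran from 30.8 to 41.9 without each library, and was 34.2 on counts not divided by length. Its direction was fixed by the choice of the 2 genes. edgeR called 4 of the 5 genes, and 0 to 4 without each library; library totals gave 5, with TMSB4X added. Same-numbered libraries deviated together (correlation across genes 0.49). No label says what the 2 numbers stand for, so whether same-numbered libraries share a batch cannot be told. The main fit had no replicate block. With the replicate block 0 of the 5 genes were called in edgeR, as was 0 of the 426. Adjusted p-values (edgeR's quasi-likelihood test) were 0.0629 for TUBB1, TMSB4X and F2R, 0.0673 for CORO6 and 0.816 for TUBB2B. All 5 were at an unadjusted p under 0.05. The log2 fold changes with the block were 1.19, -1.04, 0.58, -1.02 and -0.52 in the order TUBB1, TUBB2B, TMSB4X, CORO6 and F2R. Their SEs in that order were 0.12, 0.28, 0.055, 0.11 and 0.045. DESeq2 with the recovered size factors called 4 (TMSB4X adjusted p = 0.0507). Counting error in a library ran from 5.34% to 9.13% for TUBB1, from 7.07% to 11.6% for TUBB2B and from 6.97% to 10.0% for CORO6.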

Other observations

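A search of gene descriptions in the table for actin, myosin, kinesin, dynein, tubulin or CDC42, chosen after the values were seen, gave 9 further genes, 6 higher and 3 lower in knockdown libraries. ACTC1, an actin gene typical of heart muscle, was at 70.5 and 70.0 normalized counts in WT and 179 and 134 in the knockdown. ABLIM1, which encodes an actin-binding LIM protein, was at 2.29 times WT, MYO16, an unconventional myosin gene, at 2.32 times and the kinesin gene KIF21A at 2.20 times. CDC42EP4, a gene for an effector of the GTPase CDC42, was at 2.06 times WT, while CDC42EP1 of the same family was at 68.4% of WT. DYNLL2, a dynein light chain gene, was at 1.48 times WT. KIF20B, a kinesin gene of cell division, was at 61.6% of WT, with 1276 and 1342 normalized counts in WT and 767 and 844 in the knockdown, and MYLK4 is the third that was lower. In each of these the groups did not overlap, as in every gene of the table.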
